A study of Mus musculus with 10 samples.

Results

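The genes described here make cholesterol or set how much of it a cell makes. They are 28 of the 52550 genes in the deposited table, and they were chosen by symbol, as rows of the table whose gene name is on a list of pathway members. The list holds 19 synthesis enzymes, of which 8 catalyse the mevalonate and isoprenoid steps and 11 the sterol branch. The other 9 are 5 genes of sterol control and 4 of sterol handling. The rule used no measured value.

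RNA was measured in 10 libraries of mouse embryonic fibroblasts (MEFs), connective tissue cells cultured from embryos of the C57BL/6 strain at embryonic day 14 and used at passage 3. The cells of 5 libraries were male and those of 5 were female, no other treatment or allele is labelled, and all were grown in medium with fetal bovine serum. Total RNA was depleted of ribosomal RNA before strand-specific libraries were made. No label tells if same-sex libraries are from different embryos or cell cultures. The p-values therefore cover only variation among these 10 libraries, and that variation may be technical.

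Cholesterol is built from acetyl-CoA, first through mevalonate to farnesyl diphosphate and then, in the sterol branch, from squalene through lanosterol. When sterols in the endoplasmic reticulum are scarce, SCAP carries the membrane-bound factors SREBP1 and SREBP2 to the Golgi, where they are cut and freed to enter the nucleus and switch on the genes of the pathway. INSIG proteins hold SCAP back when sterols are plentiful. Oxysterols that build up with cholesterol activate the LXR receptors, whose targets include the exporters Abca1 and Abcg1 and the ubiquitin ligase Mylip. Cells in culture take up lipoproteins from serum and also make cholesterol themselves.

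Promoter sequences were taken from RefSeq (build GRCm38.p6) as the 250 bases before each gene's start, and 23 of the 28 members had an entry. Motifs were searched on both strands of a window that also held the 50 bases after the start, in the members and in all 27025 genes of the table. All genes here include those with few or no reads in these libraries, and shares among genes at like levels were not counted. A gene with more than 1 start, as 5 members had, counted if any of its windows matched. The core of a sterol regulatory element, TCACNCCAC, was in 1 of the 23 members, Hmgcs1, and in 1.44% of all genes. The CCAAT box, bound by the factor NF-Y, was in 20 of 23 members and in 15 of 16 enzymes, against 41.1% of all genes. The box GGGCGG, bound by Sp1, was in 21 of 23 members against 38.2% of all genes. A longer form of the sterol element, the E-box form TCACGTGA and the DR4 element used by LXR were in 0 of 23, against 0.0999%, 1.12% and 0.0148% of all genes. A match describes the letters of a window and is not a binding site, and the absence of a match says only that these letters are not in the window.

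The sequences of 4 enzymes from both branches are shown because their windows held a CCAAT box and overlapped no annotated exon. They are read 5′ to 3′ on the strand of the gene, and capitals mark CCAAT on either strand (on the opposite strand it reads ATTGG). In Hmgcs1 capitals also mark the sterol element TCACCCCAC.
Hmgcs1, chr13:119690101-119690350, plus strand: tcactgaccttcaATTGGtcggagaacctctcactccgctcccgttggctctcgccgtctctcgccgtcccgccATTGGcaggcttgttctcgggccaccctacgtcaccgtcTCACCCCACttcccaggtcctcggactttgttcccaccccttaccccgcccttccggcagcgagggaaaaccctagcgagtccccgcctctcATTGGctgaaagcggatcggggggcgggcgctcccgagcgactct
Mvd, chr8:122443423-122443672, minus strand: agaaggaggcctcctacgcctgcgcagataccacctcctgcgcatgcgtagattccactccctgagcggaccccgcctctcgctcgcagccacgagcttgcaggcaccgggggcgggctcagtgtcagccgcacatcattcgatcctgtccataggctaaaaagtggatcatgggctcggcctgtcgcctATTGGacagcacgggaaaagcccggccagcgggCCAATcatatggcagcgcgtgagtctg
Sc5d, chr9:42264301-42264550, minus strand: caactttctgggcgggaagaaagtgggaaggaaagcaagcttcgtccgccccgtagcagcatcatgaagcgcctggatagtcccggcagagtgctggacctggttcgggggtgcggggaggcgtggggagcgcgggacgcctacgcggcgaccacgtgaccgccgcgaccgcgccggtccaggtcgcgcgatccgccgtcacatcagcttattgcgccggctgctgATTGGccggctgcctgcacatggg
Ebp, chrX:8193513-8193762, minus strand: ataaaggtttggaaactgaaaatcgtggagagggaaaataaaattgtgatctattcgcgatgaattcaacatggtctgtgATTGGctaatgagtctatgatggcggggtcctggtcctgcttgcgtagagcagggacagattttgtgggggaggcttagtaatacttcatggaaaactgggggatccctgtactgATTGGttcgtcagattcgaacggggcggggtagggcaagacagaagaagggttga
The printed bases of Hmgcs1 hold 3 CCAAT boxes beside its sterol element, those of Mvd and Ebp hold 2 each, and those of Sc5d hold 1. The windows of Fdps, Fdft1, Sqle, Stard4 and Abcg1 were not used here.

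Depth was 30662616 to 45859721 unique gene reads per library, and each member had at least 163 reads in every library. Fibroblast markers were high (10 of 10 tested, summed level 22595 to 29750 CPM, counts scaled to library size), led by Fn1. Macrophage markers (14 of 15 tested, Aif1 under 1 CPM) summed to 62.1 to 92.9 CPM in males and 54.0 to 129 CPM in females. Of 8 adipocyte markers 5 were tested, and Adipoq, Plin1, Cidec and Lep were under 1 CPM. Xist was at 17.3 to 25.9 CPM in the female libraries and at no more than 0.058 CPM in the male ones. In bulk samples, fewer cells of a type and less RNA per cell cannot be told apart.

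Levels of different genes were compared as unique exon reads scaled to library size and per kilobase of exon (RPKM, mean ± SD over 10 libraries). The most abundant enzymes were Hmgcs1, which makes the precursor of mevalonate, at 73.3 ± 17.8 RPKM, and Cyp51, which removes a methyl group from lanosterol, at 70.3 ± 17.9 RPKM. Below them lay a gap, and the next enzyme, Sqle, was lower than Cyp51 in all 10 libraries, with ranges that did not overlap. It was the only place in the order of 28 members where neighbours had separate ranges, and the other 26 of 27 neighbouring pairs overlapped. The plot of levels by gene shows this step between Cyp51 and the rest.

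**Figure D1:**
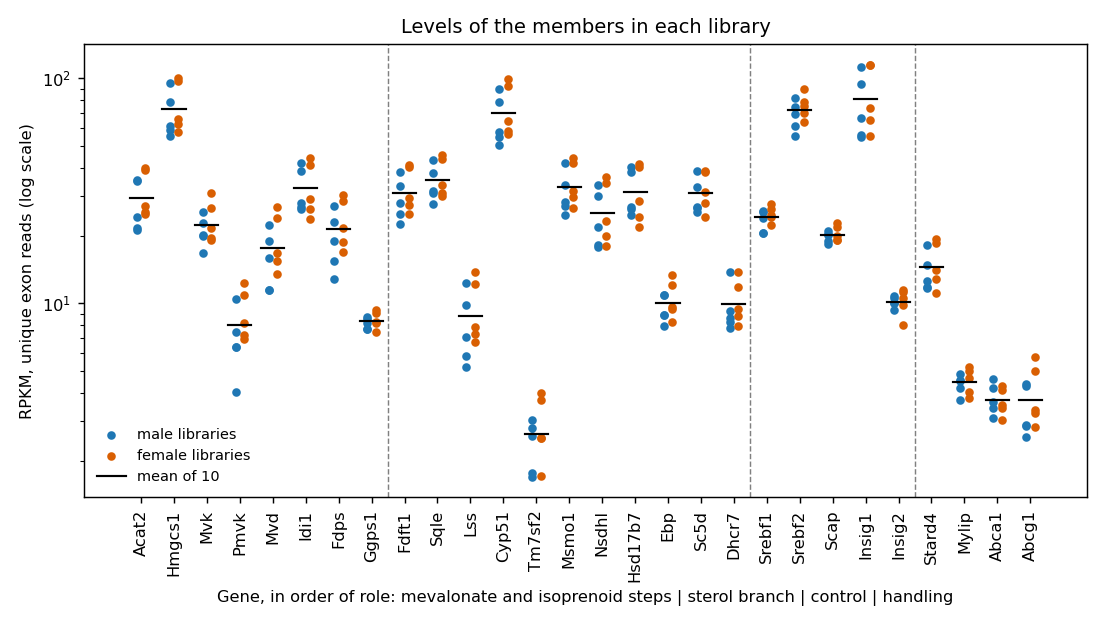
RPKM of unique exon reads on a log scale for the 28 members in order of role, with 5 male and 5 female libraries as points and the mean of 10 as a bar. Hmgcs1 and Cyp51 stand at 73.3 and 70.3 RPKM among the enzymes, and Tm7sf2 is lowest at 2.63 RPKM.

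Enzymes at the middle of the order came from both branches. Sqle, the epoxidase of squalene, averaged 35.5 ± 6.51 RPKM. Msmo1, which removes methyl groups from sterol intermediates, averaged 33.0 ± 7.32 RPKM. Idi1, the isomerase of isopentenyl diphosphate, averaged 32.7 ± 7.94 RPKM. Hsd17b7 (31.3 ± 7.87), Sc5d (31.1 ± 5.82), Fdft1 (31.0 ± 6.87) and Acat2 (29.4 ± 7.21 RPKM) were within their spread of these. Nsdhl, Mvk, Fdps and Mvd followed at 25.3 to 17.7 RPKM.

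The enzymes at the bottom of the order also came from both branches. Ebp, a sterol isomerase, and Dhcr7, a reductase of the last steps, averaged 10.0 ± 1.75 and 9.95 ± 2.33 RPKM. Lss, which closes the ring of lanosterol, averaged 8.82 ± 3.00 RPKM over an unusually long annotated exon length of 10787 bases. Ggps1, which makes geranylgeranyl diphosphate for protein prenylation, averaged 8.31 ± 0.61 RPKM, and Pmvk, a kinase of phosphomevalonate, 8.02 ± 2.49 RPKM. Tm7sf2, a sterol reductase whose step can also be carried out by the lamin B receptor Lbr, was lowest at 2.63 ± 0.79 RPKM, 27.8-fold under Hmgcs1.

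Among the control genes, Insig1 had the highest mean of all members at 80.9 ± 25.8 RPKM. Its range overlapped that of Hmgcs1, which it exceeded in 8 of 10 libraries. With total exon reads Insig1 came after Fdps and Hmgcs1. Insig2, its paralog, was at 10.2 ± 0.98 RPKM. Srebf2, which encodes SREBP2, averaged 72.0 ± 10.2 RPKM. Srebf1, which encodes SREBP1, averaged 24.1 ± 2.37 RPKM, and its lowest and highest libraries (20.5 and 27.6) stayed below every library of Srebf2. Scap averaged 20.1 ± 1.35 RPKM. The handling genes were low, with Stard4, a carrier of sterols between membranes, at 14.5 ± 3.10 RPKM, Mylip at 4.45 ± 0.51, Abca1 at 3.74 ± 0.53 and Abcg1 at 3.72 ± 1.09 RPKM.

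The place of Fdps, the farnesyl diphosphate synthase, depended on the reads counted. Only 21.8% of its gene reads were unique, so most could not be assigned to a single place. Where the other reads belong was not tested. A protein-coding gene, Gm43738, is annotated over Fdps on the same strand. The level of Fdps rose from 21.3 RPKM with unique exon reads to 88.9 RPKM with total exon reads, which put it above all other members. Unique shares were also low for Lss (59.9%), Mvd (60.4%), Acat2 (64.4%) and Idi1 (73.2%), while the other 23 members had at least 87.7%. Whether the counting used strand is not given in the sources used here, so reads of Cyp51, Fdft1, Mvd, Lss, Ggps1, Hmgcs1, Idi1, Srebf1, Scap and Insig2 cannot be told apart from those of genes annotated over them on the other strand.

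Levels within each gene varied between libraries in a shared way. From here on, levels are CPM of unique gene reads, including introns, scaled by TMM factors. In males, Hmgcs1 (chr13:119690379-119708260, mm10) was at 337.0, 291.9, 203.1, 238.9 and 213.1 CPM in replicates 1 to 5. In females it was at 359.8, 372.8, 222.5, 249.6 and 209.3 CPM. Replicates 1 and 2 of each sex were above replicates 3, 4 and 5 of both, and the sexes overlapped.

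Cyp51 (chr5:4081145-4104746) showed nearly the same order of libraries, with only male and female replicate 5 changing places. It was at 297.4, 272.1, 172.2, 209.0 and 185.7 CPM in male replicates 1 to 5. In females the values were 317.5, 345.4, 194.2, 223.7 and 192.1 CPM. Lss (chr10:76531588-76557138) varied more, at 100.7, 84.0, 45.0, 63.5 and 48.5 CPM in males and 103.7, 119.0, 55.4, 68.1 and 60.7 CPM in females, a 2.64-fold span. In each of these 3 genes male replicate 3 was the lowest library and female replicate 2 the highest.

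The separation of replicates 1 and 2 of both sexes from the other 6 libraries was noticed in these values and is a description without a test. It held for 16 of 19 enzymes and 20 of 28 members, against 2.36% of all 16602 tested genes. The enzymes without it were Pmvk, Ebp and Ggps1. The mean deviation of the enzymes from their own means (log2) was 0.33, 0.15, -0.42, -0.14 and -0.28 in male replicates 1 to 5. In females it was 0.42, 0.49, -0.25, -0.03 and -0.26. The highest and lowest libraries of an enzyme differed 1.93-fold at the median, against 1.31-fold for tested genes with a mean of at least 5 CPM.

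**Figure D2:**
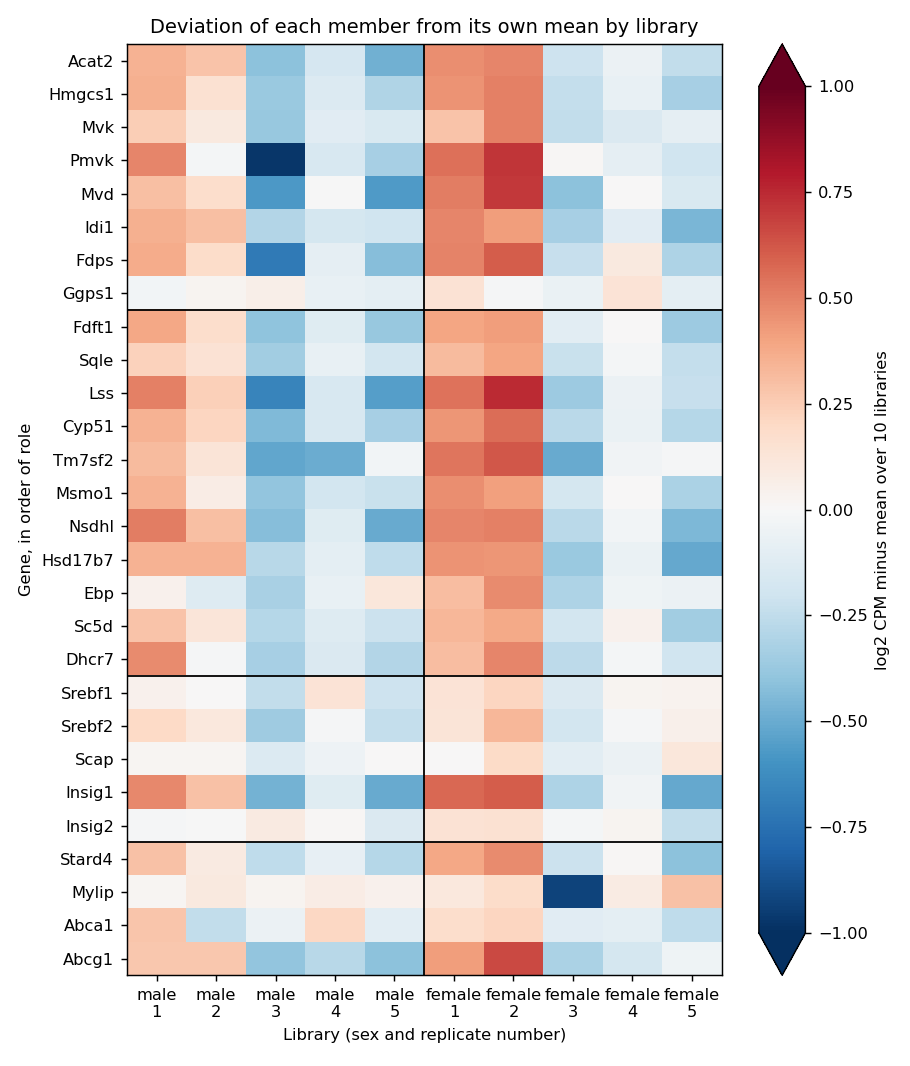
Colour gives log2 CPM minus the gene's mean over 10 libraries (scale limited to 1 on either side), with genes in rows by role and libraries in columns by sex and replicate number. In 16 of 19 enzymes replicates 1 and 2 of both sexes are the 4 highest libraries, while Ggps1, Insig2, Scap and Mylip show little of this pattern.

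Spans differed among the enzymes. The widest was that of Pmvk, at 17.3, 12.2, 6.28, 11.1 and 9.79 CPM in males and 18.1, 20.3, 12.4, 11.6 and 10.8 CPM in females, a 3.23-fold span on 196 to 789 reads. The narrowest was that of Ggps1 (chr13:14050659-14063488), at 32.3, 33.4, 34.2, 31.2 and 30.7 CPM in males and 36.3, 32.5, 31.4, 36.0 and 30.7 CPM in females, a 1.18-fold span. Female replicate 1 was its highest library, but the other high libraries of the enzymes were not set apart in it. Geranylgeranyl diphosphate synthase takes farnesyl diphosphate out of the sterol route, so it is the one enzyme on the list that does not lead to cholesterol.

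Pairs of members were compared over the 10 libraries by Pearson's r of log2 CPM, with Spearman's rho, two-sided permutation tests and Benjamini-Hochberg adjustment over all 378 pairs. Among the 171 pairs of enzymes the median r was 0.92 and the median rho 0.89, and 98 pairs had an r of at least 0.9. All pairs of tested genes had a median r of -0.00025, in which positive and negative values offset each other. By r, 149 enzyme pairs had an adjusted p under 0.05, and by rho 138 did. The share of all gene pairs that would pass was not counted. Of all tested genes, 12.6% had a mean r to the enzymes of at least 0.5. Leaving out the 2 libraries farthest from the median of each pair's gene on the x axis left a median r of 0.88. The pairs share genes and libraries, so they are not independent of each other.

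The tightest enzyme pair was Hmgcs1 with Cyp51 (r = 0.994, rho = 0.988, permutation p = 1e-05 for both, the smallest that 100000 resamples can give, adjusted p = 9.95e-05 by r and 0.000199 by rho, r = 0.989 without the 2 farthest libraries). Sqle with Cyp51 had an r of 0.993 and Idi1 with Hsd17b7 an r of 0.992. Genes of the mevalonate steps and of the sterol branch were thus among each other's closest partners. Each pair with Ggps1 was weak, from r = 0.13 with Pmvk to r = 0.47 with Sc5d, and 0 of its 18 enzyme pairs passed. Without Ggps1, 149 of 153 enzyme pairs passed and the lowest r was 0.61.

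**Figure D3:**
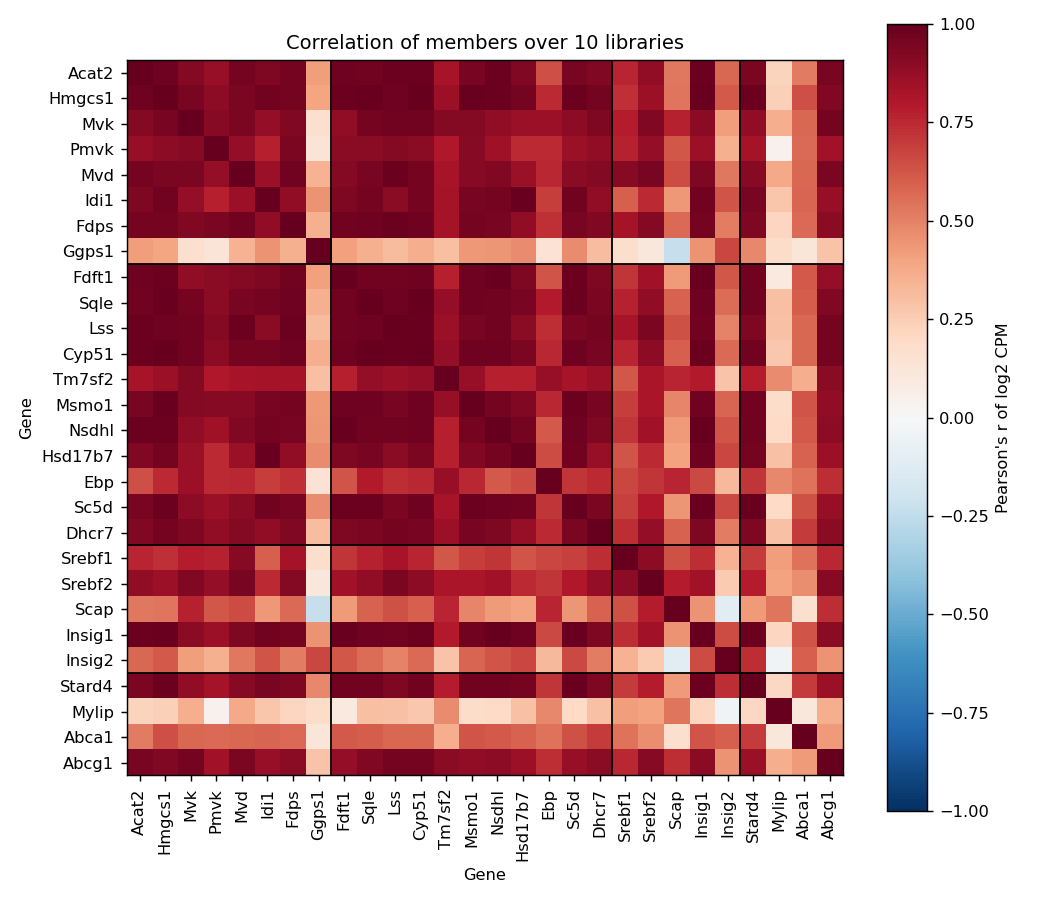
Pearson's r of log2 CPM over 10 libraries for each pair of the 28 members, ordered by role with lines between roles. The 171 enzyme pairs have a median r of 0.92, the row of Ggps1 is pale against the other enzymes, and Insig1, Stard4 and Abcg1 join the block while Mylip does not.

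Within replicates 3, 4 and 5 of both sexes, a subset of 6 libraries chosen after the data were seen, the median r of enzyme pairs was 0.66, pairs ranged down to -0.38, and 0 of 378 member pairs passed the exact permutation test after adjustment. These 6 libraries span less of the range of enzyme levels than all 10, and they are few. A narrow range can lower r and few libraries weaken its test, so the count of 0 cannot decide whether the relation holds among them. Hmgcs1 with Cyp51 was high there (r = 0.96), as was Idi1 with Hsd17b7 (r = 0.97). Other enzyme pairs were near 0, among them Mvk with Idi1 (r = 0.10) and Acat2 with Tm7sf2 (r = 0.007), both chosen after their values were seen. The other 4 libraries are too few for a correlation. The summed level of 10 cell cycle markers was 655 to 680 CPM in replicates 1 and 2 of both sexes and 708 to 894 CPM in the others, without overlap. Beyond the correlations that follow, its part in the pattern was not tested. Of 190 relations between an enzyme and a library measure (depth, unique and intron shares, Gm26917 share, 6 marker sums), 0 passed the permutation test with adjustment over the family, the smallest adjusted p being 0.185. Median r was -0.61 with cell cycle markers, -0.71 with adipocyte markers, 0.70 with fibroblast markers and 0.06 with depth. The count of 0 over 10 libraries does not show that these measures were unrelated to the enzymes.

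The control genes split in how closely they followed the enzymes. A mean r to the enzymes of at least 0.5 was reached by 5 of 5 control genes and 3 of 4 handling genes, against 12.6% of all tested genes. For the counts of passing pairs given below, the share among all tested genes was not counted. Insig1 (chr5:28071363-28078662), itself a known SREBP target, was at 262.0, 229.9, 135.1, 172.8 and 132.0 CPM in males and 279.5, 284.8, 151.0, 182.7 and 131.5 CPM in females. Its median r to the 19 enzymes was 0.97, and 17 of 19 pairs passed. The closest was with Nsdhl (r = 0.996, rho = 0.952, permutation p = 2e-05 and 8.0e-05, adjusted p = 0.000145 and 0.00055, r = 0.997 without the 2 farthest libraries). Insig2, at 27.2 to 36.0 CPM, had a median r of 0.57 and 3 of 19 pairs passed.

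Srebf2 was at 358.9, 336.5, 244.4, 310.9 and 266.2 CPM in males and 342.1, 393.9, 275.2, 311.4 and 323.9 CPM in females. Its 4 libraries of replicates 1 and 2 were above the rest, the median r to the enzymes was 0.85 and 18 of 19 pairs passed. Srebf1, at 93.6 to 128.9 CPM, had a median r of 0.73 with 14 of 19 pairs passing, and male replicate 4 was among its high libraries. Scap, at 76.9 to 96.2 CPM, had a median r of 0.57 with 3 of 19 pairs passing. The transcripts for both SREBP factors thus varied with the enzymes, over smaller spans (1.61-fold for Srebf2 and 1.38-fold for Srebf1) than the enzymes' median.

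The handling genes also split. Stard4, at 48.1 to 88.8 CPM, had a median r of 0.94 to the enzymes with 18 of 19 pairs passing. Abcg1, the exporter, was at 17.2, 17.2, 10.8, 11.8 and 10.8 CPM in males and 19.0, 22.6, 11.4, 12.6 and 13.9 CPM in females, with a median r of 0.90 and 18 of 19 pairs passing. Abca1, at 27.8 to 40.3 CPM, had a median r of 0.58 and 1 of 19 pairs passed. For Mylip the median r was 0.27 and 0 of 19 passed. The 3 handling genes named above as LXR targets, Abcg1, Abca1 and Mylip, thus differed widely in how closely they tracked the enzymes. Differences between these correlations were not tested.

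Intron reads, which come largely from unspliced RNA, gave a second readout of the same libraries. They were used for the 19 members, 11 of them enzymes, with at least 100 intron reads in every library. Hmgcs1 intron reads were at 110.6, 86.1, 65.2, 81.1 and 48.7 CPM (scaled to intron reads) in males and 112.4, 101.3, 73.4, 84.3 and 52.7 CPM in females. Replicates 1 and 2 of both sexes were again above the other 6 libraries, as in its exon reads. In intron reads those 4 libraries were above the other 6 in 10 of the 11 enzymes, Sqle being the exception, against 1.99% of 5931 genes with as many intron reads. In exon reads Dhcr7 was the exception among the 11, since male replicate 2 (37.2 CPM) was below female replicate 4 (37.9 CPM). Intron and exon reads of an enzyme had a median r of 0.86 (0.69 for Hsd17b7 to 0.92 for Nsdhl), against 0.34 over those 5931 genes. Among pairs of the 11 enzymes the median r of intron reads was 0.93.

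**Figure D4:**
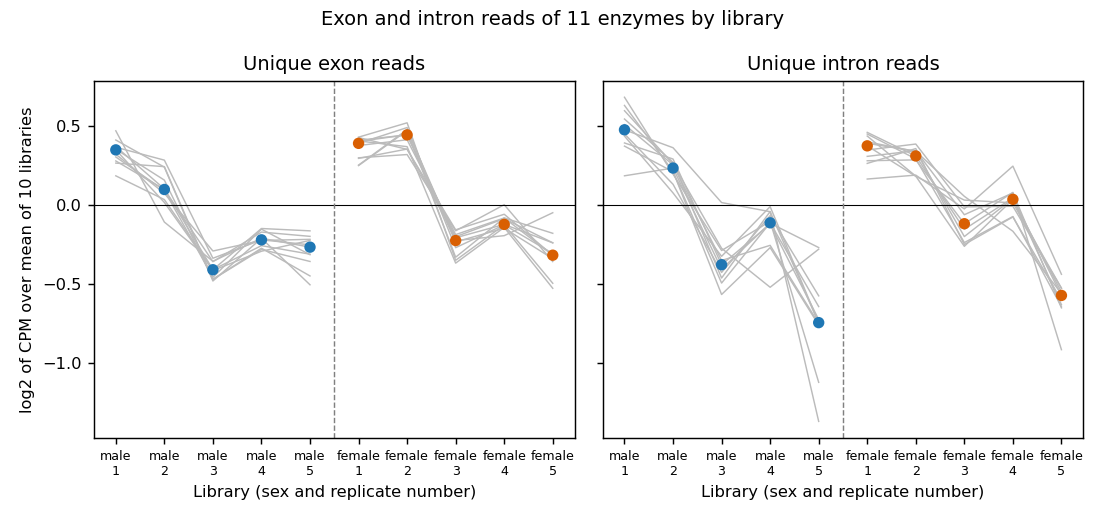
log2 of CPM over the gene's mean for unique exon reads (left) and unique intron reads (right) of 11 enzymes by library, with grey lines for genes and coloured points for their median (blue male, orange female). Both panels are high in replicates 1 and 2 of each sex and low in replicates 3 and 5, and in intron reads those 4 libraries are above the other 6 in 10 of 11 enzymes.

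Other lists of the pathway were followed in the same way, counting genes whose mean r to the enzymes was at least 0.5 (12.6% of all tested genes). Among genes of fatty acid synthesis under SREBP, 13 of 16 tested were over this value, with a median of 0.83. They included Scd1 (0.91), Acss2 (0.90), Acly (0.89), Scd2 (0.88), Fads2 (0.87) and Fasn (0.75), which supply acetyl-CoA (Acss2, Acly) or build and desaturate fatty acids, while Gpam, Acacb and Pnpla3 were between -0.06 and 0.05. Among 13 genes of SREBP processing and sterol sensing 4 were over 0.5, with a median of 0.17. These were Sar1a (0.75), Sec23a (0.68), Sec24a (0.60), all of the vesicle coat that carries SCAP, and the protease Mbtps1 (0.57). Sec24c (0.28) and Sar1b (0.17) of the same coat and the protease Mbtps2 (0.31) were under 0.5. The sterol-sensing partners Erlin1 and Erlin2 were at -0.68 and -0.64. Of 18 genes of cholesterol transport and oxysterols 8 were over 0.5, led by Lipa and Scarb1 at 0.77 each. Of 14 genes of the isoprenoid and dolichol branch 2 were, Dhdds (0.59) and Icmt (0.54), with a median of -0.12.

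Genes outside the list were ranked by mean r to the 19 enzymes among 10102 genes with a mean of at least 5 CPM, over the 10 libraries. Of the highest 10, Scd1 led at 0.91. Acss2, Acsl3, Rdh11 and Asns followed at 0.90, and Mmab, Helz2, Erg28 and Aacs at 0.89. Scd1 was at 376.3, 319.1, 209.9, 282.0 and 225.9 CPM in males and 397.8, 411.4, 226.3, 279.5 and 215.0 CPM in females, so the same 4 libraries were high. Mmab (chr5:114431034-114444060) is the neighbour of Mvk (chr5:114444269-114460591), on the other strand, and their annotated starts lie 209 bases apart.

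The comparison of the sexes asks which genes differ between male and female MEFs. None of the 28 members was called. Across all 16602 tested genes 15 were called (0.0904%, edgeR's quasi-likelihood test, Benjamini-Hochberg adjusted p under 0.05), and the lowest adjusted p of a member was 0.996. At an unadjusted p under 0.05 the count was 0 of 28, against 5.55% of all genes, and DESeq2 and limma-voom also called 0 members. With the replicate number as a block, 13 of 28 members had an unadjusted p under 0.05 (8.94% of all genes), each higher in females, and 0 were called (lowest adjusted p 0.167, for Fdps, log2 fold change 0.27 ± 0.06 SE). Whether the numbers pair the libraries is not given by the labels. The sexes overlapped in every member, against 0.976% of tested genes without overlap. A false discovery rate under 0.05 was reached by 0 members in the authors' deposited table, and by 82 of all its 52550 genes.

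The log2 fold change, female minus male, was above 0 in 26 of 28 members and in 19 of 19 enzymes, against 52.1% of all tested genes, with Hsd17b7 near 0 (0.0024) and below it with upper quartile factors. Its median was 0.13 over members and 0.14 over enzymes, against 0.0048 over all genes. Because the members vary together between libraries, these signs are not independent. Leaving out female replicate 2 brought the median to 0.02, female replicate 1 to 0.06, male replicate 3 to 0.06 and male replicate 5 to 0.07, and leaving out male replicate 1 brought it to 0.24 and female replicate 5 to 0.20. The signs of Hsd17b7 and Idi1 turned without female replicate 1 or 2 or male replicate 3, 4 or 5. With 1 surrogate variable in the fit the median was 0.02 and 17 of 28 members were above 0. The spread of the members' median between libraries of a sex was larger (SD 0.31 on the log2 scale).

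The largest difference was in Pmvk (11.3 ± 4.02 CPM in the 5 male libraries and 14.6 ± 4.27 CPM in the 5 female ones, SD), with a log2 fold change of 0.37 ± 0.27 (SE) and an adjusted p of 0.996 by edgeR. Ebp and Nsdhl lie on the X chromosome and encode enzymes of the sterol branch. Ebp was at 17.9, 15.9, 13.9, 16.5 and 18.8 CPM in males and 21.5, 24.1, 14, 16.9 and 16.6 CPM in females, with a log2 fold change of 0.16 ± 0.14 (SE). Nsdhl was at 98.2, 84.5, 51.1, 63.1 and 48.4 CPM in males and 96.4, 97.3, 56.9, 67.6 and 50.3 CPM in females, with a log2 fold change of 0.09 ± 0.26 (SE). In both genes the sexes overlapped and the differences were within the spread. Abca1 (-0.03 ± 0.11) and Mylip (-0.05 ± 0.19, SE) were the 2 members below 0. Mylip was above 0 with unique exon reads (0.0554) and without female replicate 3 (0.113), its far low library, and Abca1 was above 0 without male replicate 1 or 4 or female replicate 5 (up to 0.0383). Among the other pathway lists, 0 of 61 tested genes were called.

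**Figure D5:**
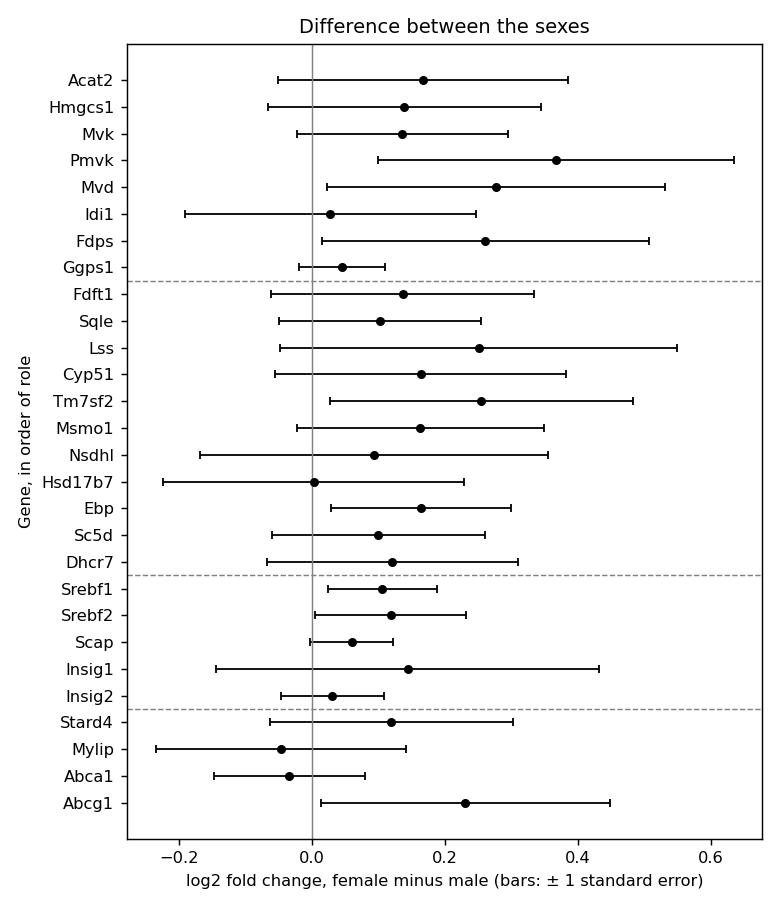
log2 fold change, female minus male, of the 28 members with bars of 1 standard error on either side, in order of role. The points lie between -0.05 for Mylip and 0.37 for Pmvk, and 26 of 28 are above 0 (Hsd17b7 falls below 0 with upper quartile factors), with 0 called.

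On simulated counts for this comparison, 90% of genes changed 2-fold and 64% of those changed 1.5-fold were recovered among 16348 genes, while the largest difference of a member, that of Pmvk, was 0.37 on the log2 scale. The changed genes were drawn at random from expressed genes, and counts were drawn independently for each gene. Enzymes varied more between libraries (median span 1.93-fold) than tested genes with a mean of at least 5 CPM (1.31-fold). The shares recovered may therefore be lower for members. Smaller differences between the sexes may not be detectable at this depth and spread.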

How the data were processed

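RNA-seq of 10 libraries was analysed. The authors deposited 1 table of 52550 genes with unnormalized whole-number counts per library of unique and total gene, exon and intron reads, and exon lengths in bases, per the file headers. They also deposited a false discovery rate (an adjusted p-value) and a signed fold score of their own sex test. Per the submitters' processing notes the genome build was mm10. An aligner is not given in the sources used here. In all, 100 other per-library columns were left unused.

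Unique gene reads were tested with edgeR 4.0.16 in R 4.3.3 (filterByExpr, minimum count 10, TMM factors, robust quasi-likelihood fit on sex, two-sided) and adjusted over 16602 genes. SE is the size of the log2 fold change over the root of F. Correlations used log2 CPM with a prior count of 2 and 100000 resamples in Python 3.11. Alternatives were other scalings, filters and read classes, DESeq2 1.42.0, limma-voom 3.58.1, sva 3.50.0, a replicate block and leaving out each library. Levels in RPKM and signs were compared by library. Libraries of a sex differed by more than sampling noise, so none was taken as a copy. The named genes are all members, the 10 genes most like and 5 least like the enzymes by mean r, and listed pathway genes with their values. Of the 10, 1 gene is not reported here. The members and lists were chosen with earlier results of these data known. The test was run on simulated data.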

Additional observations from a re-analysis of the deposited data

Results flagged for a closer look

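Among 56 groups of 5 libraries (28 members, each sex apart), 1 had a library that stood far from the rest by Dixon's test at its critical value of 0.71, where chance gives about 1 in 20 groups. Mylip, the ubiquitin ligase for lipoprotein receptors, was at 35.5 CPM in female replicate 3, against 71.5 to 82.6 CPM in the other female libraries. Male libraries were at 68.3 to 72.1 CPM. The low value was in intron reads, which made up 84.3% of the gene's unique reads, at 87.2 CPM of intron reads against 188 to 285 in the other libraries. Exon reads of Mylip were at 13.1 CPM in that library, within the range of 11.98 to 16.8 CPM over all 10. No cause was tested.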

How the results depend on the processing

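No member was called by sex under any of the 20 alternatives to the fit by sex. The number of genes called overall was 15, and rose to 30 with no filter, 70 with DESeq2 and 43 with the replicate block, and leaving out 1 library gave 12 to 36. The median log2 fold change of members stayed above 0 throughout (0.02 to 0.24 with 1 library left out). The sign of Hsd17b7 (0.0024) turned to -0.0048 with upper quartile factors, -0.0025 with a stricter filter (1 CPM or more in 5 libraries), -0.0269 with limma-voom, -0.0232 with the replicate block, -0.000658 with total gene reads and -0.0015 with unique exon reads. Idi1 turned to -0.0022 with limma-voom and Mylip to 0.0554 with unique exon reads. With 1 surrogate variable the log2 fold change was -0.00947 for Hmgcs1, -0.135 for Idi1, -0.00463 for Sqle, -0.0751 for Nsdhl, -0.168 for Hsd17b7, -0.0184 for Sc5d, -0.0573 for Insig1, -0.0113 for Insig2 and -0.0237 for Stard4. With 1 library left out, it ranged from -0.106 to 0.131 for Idi1, -0.0323 to 0.255 for Nsdhl, -0.122 to 0.113 for Hsd17b7, -0.00247 to 0.282 for Dhcr7, -0.00701 to 0.30 for Insig1, -0.00862 to 0.0917 for Insig2, -0.13 to 0.113 for Mylip and -0.0991 to 0.0383 for Abca1. The cause was not tested.

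The median r of enzyme pairs (0.92) was 0.91 to 0.94 with 1 library left out, 0.89 as Spearman's rho and 0.66 in the 6 libraries of replicates 3, 4 and 5, a subset added after the data were seen. Pairs of members with an adjusted p under 0.05 numbered 255 of 378, 207 to 268 with 1 library left out, 0 in those 6 libraries and 91 of 171 with unique intron reads, where fewer members could be used. The ratio of the highest to the lowest enzyme level was 27.8, and 39.3 with total exon reads, which raised Fdps. The labels name no batch, and same-numbered male and female libraries deviated together with r = 0.08, 0.07, 0.14, 0.04 and 0.24 over all tested genes, so the numbers were not taken to pair them. Over genes with a mean of at least 5 CPM the values were 0.21, 0.31, 0.38, 0.12 and 0.50. There male replicates 1, 2, 3 and 5 and female replicates 2, 3 and 5 correlated best with their own number in the other sex. Male replicate 4 and female replicates 1 and 4 did not. Over the 19 enzymes the values were 0.59, 0.52, 0.34, -0.02 and 0.65, and there too not every library correlated best with its own number. With the replicate block the median r of enzyme pairs was 0.56, with no test, and 13 of 28 members had an unadjusted p under 0.05 in the sex comparison. The pairing check thus depends on the genes used, and every pair is over 0.1 only over the more abundant genes. Counts of 163 to 450 reads for Tm7sf2 and 196 to 789 for Pmvk limit their precision more than that of the other enzymes.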

Other observations

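Genes that varied opposite to the enzymes were ranked in the same way, as a description over 10 libraries. The 5 lowest mean r to the enzymes were those of Fgd3 (-0.91), Phldb2 (-0.90), Smurf2 (-0.89), Noct (-0.89) and Smad9 (-0.89). Smad9, a transcription factor of the bone morphogenetic protein pathway, was at 5.41, 10.0, 16.1, 11.4 and 18.4 CPM in male replicates 1 to 5 and at 5.94, 4.60, 13.1, 10.7 and 16.0 CPM in female ones. Its 4 lowest libraries were replicates 1 and 2 of both sexes, the libraries in which the enzymes were high. Phldb2, a membrane-associated cytoskeletal protein, spanned 520 to 701 CPM with the same 4 libraries lowest.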
